A study of Rattus norvegicus with 9 samples.

Results

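The genes described here are 8 cathepsins (Ctsb, Ctsc, Ctsd, Ctsh, Ctsk, Ctsl, Ctss and Ctsz) and 2 membrane proteins of lysosomes and late endosomes (Lamp1 and Cd63). They were picked by gene symbol from a table of 35843 genes, and each of the 10 symbols was found there. RNA of the left ventricle was sequenced at day 28 after surgery in adult male Sprague-Dawley rats, 3 in each group. In group MI the left anterior descending coronary artery had been ligated for good, and the rats received saline by gavage. Rats of group MI + DAPA had the same ligation and received dapagliflozin (DAPA), an inhibitor of the sodium-glucose co-transporter 2, by daily gavage from day 1. Rats of group Sham were operated on without ligation and received saline. The study's methods state for its molecular work in general that tissue came mainly from the border of the infarct, or from the matching site in group Sham, with the scar cut away. Its passages on the sequencing speak of left ventricles and of infarct myocardium, so the exact site of these samples is uncertain. Each library is therefore a mixture of muscle, stromal and immune cells, in which fewer cells of a type and less RNA per cell cannot be told apart.

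Cathepsins are proteases that break down proteins in the acid interior of lysosomes, and most of them are cysteine proteases that are made as inactive precursors. Macrophages use them to digest engulfed material, antigen-presenting cells use some of them to load MHC class II molecules, and cathepsins that leave the cell can cut collagen and elastin. In an infarcted heart, macrophages remove dead muscle and fibroblasts lay down and remodel the matrix of the scar. Lamp1 is a heavily glycosylated protein of the lysosomal limiting membrane, and Cd63 is a tetraspanin of late endosomes, lysosomes and exosomes.

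The RefSeq promoter table of build GRCr8 held 9 of the 10 genes, with a window from 250 bases before to 50 bases after the start of each gene. Ctsb had no entry. The palindrome CACGTG, the core of the element that TFEB and its relatives recognise in lysosomal genes, was searched in these windows, where both strands read alike. It was in the windows of 3 of the 9 genes, Lamp1, Ctsd and Cd63, and in 6.42% of all 33469 promoters of the table. Lamp1 held 5 copies and was the 1 promoter of the table with at least 5. Ctsd held 2 copies and Cd63 held 1, and 0.52% of all promoters held at least 2. The sequence GAGGAAGT, a form of the site of the myeloid factor PU.1, was searched on both strands and does not overlap CACGTG. It was in the windows of Ctss and Ctsc and in 2.42% of all promoters. The windows of Lamp1 (chr16:83075014-83075313, minus strand), Ctsd (chr1:206968772-206969071, minus strand), Ctss (chr2:185775146-185775445, plus strand) and Ctsc (chr1:151440799-151441098, plus strand) are shown 5′ to 3′ because they hold these letters and because the 4 genes differed in their levels between the groups to unlike degrees. Capitals mark CACGTG in the first 2 and GAGGAAGT, read as ACTTCCTC on the opposite strand, in the last 2.
Lamp1: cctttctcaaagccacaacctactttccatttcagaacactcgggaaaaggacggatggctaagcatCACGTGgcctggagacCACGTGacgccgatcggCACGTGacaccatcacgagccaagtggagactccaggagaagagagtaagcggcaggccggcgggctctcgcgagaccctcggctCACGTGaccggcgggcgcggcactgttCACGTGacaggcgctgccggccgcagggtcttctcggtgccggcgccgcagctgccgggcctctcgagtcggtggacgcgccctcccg
Ctsd: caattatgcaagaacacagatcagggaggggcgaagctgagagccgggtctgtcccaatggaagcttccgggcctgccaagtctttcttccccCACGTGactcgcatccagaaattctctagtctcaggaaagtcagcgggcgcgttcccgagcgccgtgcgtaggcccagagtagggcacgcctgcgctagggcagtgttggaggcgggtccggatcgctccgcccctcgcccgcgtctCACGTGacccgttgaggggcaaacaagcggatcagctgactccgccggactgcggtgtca
Ctss: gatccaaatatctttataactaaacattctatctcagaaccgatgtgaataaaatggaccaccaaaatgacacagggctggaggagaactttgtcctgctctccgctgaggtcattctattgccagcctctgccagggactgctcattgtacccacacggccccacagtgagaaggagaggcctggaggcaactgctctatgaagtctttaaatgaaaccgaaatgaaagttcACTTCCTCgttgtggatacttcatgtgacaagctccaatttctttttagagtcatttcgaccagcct
Ctsc: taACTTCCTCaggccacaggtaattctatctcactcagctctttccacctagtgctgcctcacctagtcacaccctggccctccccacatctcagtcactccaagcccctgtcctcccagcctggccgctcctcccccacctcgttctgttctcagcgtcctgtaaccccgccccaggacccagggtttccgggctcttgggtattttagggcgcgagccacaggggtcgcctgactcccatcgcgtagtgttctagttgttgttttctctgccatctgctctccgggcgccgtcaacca
A match of letters is a description of the window and does not show that a factor bound there. Ctsk and Ctss lie on the same chromosome in RefSeq with 1 annotated gene between them.

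The authors deposited FPKM values, that is fragments divided by the length of the transcript and by a denominator of the library, so that levels can be compared between genes within a rat. The denominators followed the reads outside the mitochondrial genome more than the total reads, and levels compared between rats depend on that choice. Reads recovered from these values ranged from 13597239 to 17210909 per rat, and the mitochondrial genome gave 61.1% to 66.9% of them in the Sham rats, 7.07% to 19.1% in the MI rats and 17.5% to 32.0% in the MI + DAPA rats. The 10 genes had between 61 and 21841 reads per rat, fewest for Ctss and Ctsk in group Sham, where counting error was therefore largest. The labelled tissue was checked by heart muscle markers, and Myh6, the alpha heavy chain of cardiac myosin, was between 174 and 329 FPKM in group Sham. In RefSeq the spans of 5 of the genes overlap another gene, and the counting was not stated to use strand. Of the overlapped genes, Tnni2 beside Ctsd reached 1.60 FPKM at most, Rdh5 beside Cd63 reached 0.983 FPKM at most, and Nelfcd beside Ctsz was between 11.5 and 30.4 FPKM. The genes that overlap Ctsk and Lamp1 were not matched by name in the table, so their levels are not given.

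All 10 genes had a higher mean level in group MI than in group Sham, and 9 of them had no overlap between the 3 rats of each group. A gene was called where limma, on log2(FPKM + 1), gave an unadjusted p under 0.05 together with a log2 fold change beyond 1 in either direction. By this rule 7 of the 10 genes rose in MI vs. Sham, against 12.1% of the 13485 genes tested that were called higher. For the absence of overlap, the 9 of 10 compare with 27.1% of the genes tested that were higher in group MI in every rat. With Benjamini-Hochberg adjustment over all genes tested, 9 genes had an adjusted p under 0.05, against 19.5% of all genes in this direction. The median log2 fold change of the 10 genes was 1.77, and that of all genes tested was -0.005. Ctss, Ctsk, Ctsb, Ctsz, Ctsh, Ctsc and Ctsd rose, whereas Cd63, Lamp1 and Ctsl were not called.

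In MI + DAPA vs. MI the differences were smaller, and 8 of the 10 genes had a negative log2 fold change. Ctss alone was called, in the direction of a lower level in group MI + DAPA, against 1.11% of the 13251 genes tested that were called lower. It was also the only one of the 10 without overlap between the rats, a pattern that 7.16% of the genes tested had in this direction. None of the 10 genes, and none of all genes tested, had an adjusted p under 0.05 by limma, while 2 of the 10, both lower in group MI + DAPA, had an unadjusted p under 0.05, against 3.9% of all genes in this direction. The smallest adjusted p over all genes was 0.558. The median log2 fold change of the 10 genes was -0.34, and that of all genes tested was -0.02.

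In MI + DAPA vs. Sham all 10 log2 fold changes were positive, and 6 genes rose, against 9.54% of the 13359 genes tested that were called higher. Again 9 of the 10 genes had no overlap between the groups, against 23.2% of the genes tested that were higher in every treated rat. The adjusted p was under 0.05 for 9 of the 10, against 14.5% of all genes in this direction. The median log2 fold change was 1.45. This comparison shares its Sham rats with MI vs. Sham and its treated rats with MI + DAPA vs. MI, so that the 3 comparisons are not independent of each other.

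**Figure D1:**
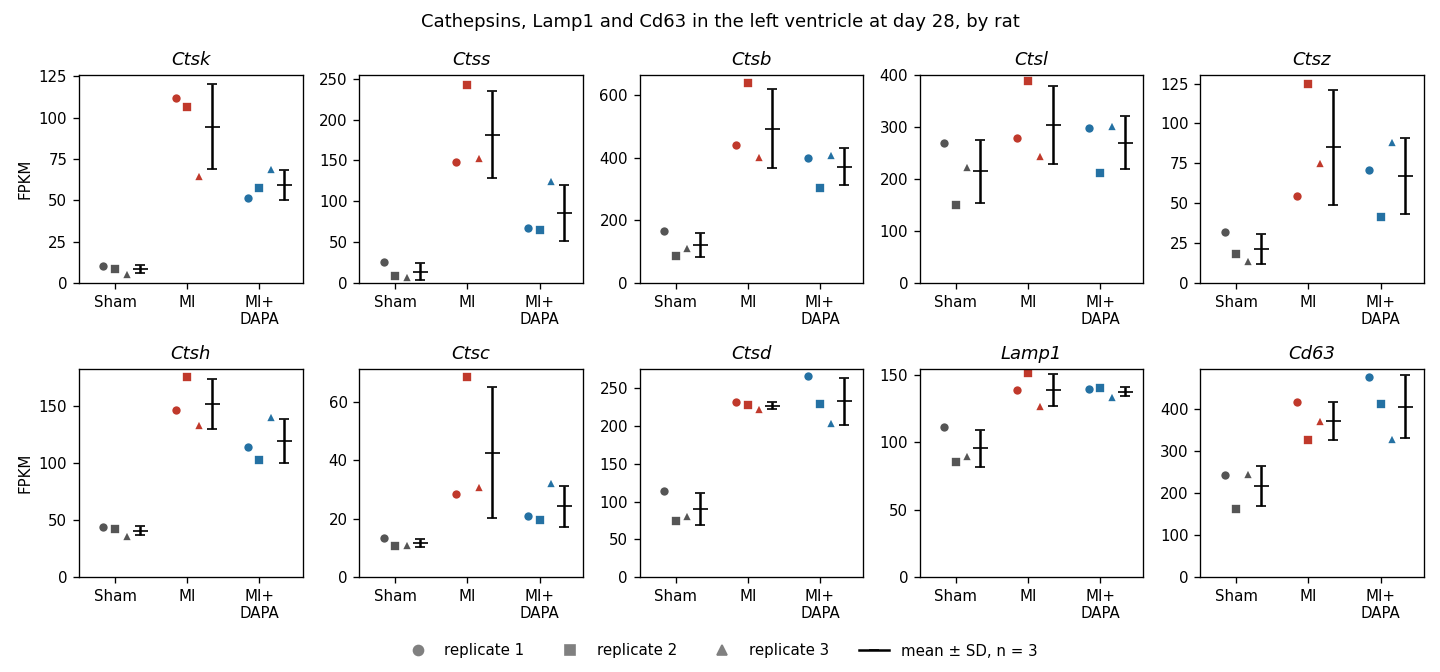
FPKM (y axes, starting at 0) of the 10 genes in each of the 9 rats, by group (x axes), with black lines for the mean ± SD of 3 rats. The Sham rats lie below every MI rat in each panel but that of Ctsl, and the MI and MI + DAPA rats are separate only for Ctss.

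Ctsk, a strong collagenase known best from osteoclasts, was at 10.5, 8.67 and 5.53 FPKM in the Sham rats. The MI rats had 112, 106 and 64.9 FPKM, and the MI + DAPA rats had 51.3, 57.2 and 69.0 FPKM. Both ligated groups lay far above group Sham, and the treated rats overlapped the lowest MI rat. The mean was 11.5 times that of group Sham in group MI, with a log2 fold change of 3.37 (SE 0.28, limma adjusted p = 0.000953). Against group MI, group MI + DAPA had a ratio of the means of 0.627 and the log2 fold change -0.64 (SE 0.24, limma unadjusted p = 0.0356, adjusted p = 0.558), which was not past the fold threshold. Ctsk had the largest log2 fold change of the 10 genes in MI + DAPA vs. Sham, 2.73 (SE 0.24, limma adjusted p = 0.00156).

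Of the osteoclast markers, Dcstamp, a protein needed for the fusion of osteoclast precursors, was listed at 0 in all 9 rats. Calcr, the calcitonin receptor, reached 0.0321 FPKM in 1 MI rat and was listed at 0 in the other 8. Ocstamp was at most 0.196 FPKM. These 3 genes were chosen after their values were seen. A gene listed at 0 in all 9 rats may not have been quantified in this table, which also lists Cldn5, an endothelial gene, and Glmp, a lysosomal membrane gene, at 0 in every rat. Ctsk was at 64.9 FPKM or more in every MI rat. Acp5, an acid phosphatase of osteoclasts and macrophages, rose in MI vs. Sham by a log2 fold change of 1.57 (SE 0.32), and Nfatc1, a transcription factor of osteoclasts and other cells, had 0.75 (SE 0.16), under the fold threshold. The 3 osteoclast markers tested all had positive log2 fold changes in MI vs. Sham. Of these 1 was called, beside 12.1% of all genes called higher. None was called in MI + DAPA vs. MI, where Nfatc1 had the smallest p (log2 fold change -0.37). The list summed to 10.1 to 16.4 FPKM in the Sham rats, 23.4 to 35.9 FPKM in the MI rats and 21.1 to 23.6 FPKM in the MI + DAPA rats. The part of osteoclasts in the level of Ctsk was not tested.

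Ctss, an elastase of macrophages and dendritic cells that trims the invariant chain of MHC class II, was at 25.6, 8.46 and 7.00 FPKM in the Sham rats. The MI rats had 148, 243 and 153 FPKM, and the MI + DAPA rats had 67.8, 64.4 and 125 FPKM. The 3 groups did not overlap each other. Sham replicate 1 stood above the other Sham rats, and MI + DAPA replicate 3 stood nearest to group MI. The mean in group MI was 13.3 times that in group Sham, with the largest log2 fold change of the 10 genes, 3.82 (SE 0.45, limma adjusted p = 0.00168). With DAPA the ratio of the means to group MI was 0.472 and the log2 fold change -1.10 (SE 0.32, limma unadjusted p = 0.0108, adjusted p = 0.558). The call was lost without MI replicate 2 (-0.88), without MI + DAPA replicate 1 (-0.97) and without MI + DAPA replicate 2 (-0.93), each just under the fold threshold. The log2 fold change was 2.71 (SE 0.47, limma adjusted p = 0.0068) in MI + DAPA vs. Sham.

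Ctsb, a cysteine protease of broad specificity, was at 165, 87.4 and 111 FPKM in the Sham rats, at 440, 637 and 401 FPKM in the MI rats, and at 401, 303 and 409 FPKM in the MI + DAPA rats. Its mean in group MI, 492 ± 127 FPKM (SD, n = 3), was the highest of the 10 genes there and 4.07 times that of group Sham. The log2 fold change was 2.03 (SE 0.28, limma adjusted p = 0.00253) in MI vs. Sham and 1.64 (SE 0.26, limma adjusted p = 0.00518) in MI + DAPA vs. Sham. The MI and MI + DAPA rats overlapped, with a log2 fold change of -0.39 (SE 0.25, limma adjusted p = 0.61).

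Ctsl, another broad cysteine protease and one of the most abundant of the 10 in the hearts of group Sham, behaved unlike Ctsb. The Sham rats had 269, 151 and 223 FPKM, the MI rats 279, 389 and 244 FPKM, and the MI + DAPA rats 298, 211 and 302 FPKM. Ctsl was the only one of the 10 genes whose Sham and MI rats overlapped. The log2 fold change was 0.51 (SE 0.27, limma adjusted p = 0.172) in MI vs. Sham, -0.16 (SE 0.25, limma adjusted p = 0.822) in MI + DAPA vs. MI and 0.35 (SE 0.26, limma adjusted p = 0.346) in MI + DAPA vs. Sham.

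Ctsz, a carboxypeptidase, was at 31.8, 18.3 and 13.5 FPKM in the Sham rats, at 54.6, 125 and 75.5 FPKM in the MI rats and at 70.9, 41.2 and 88.4 FPKM in the MI + DAPA rats. Both ligated groups lay above group Sham and overlapped each other. Ctsz had a log2 fold change of 1.96 (SE 0.38, limma adjusted p = 0.00793) in MI vs. Sham and 1.63 (SE 0.37, limma adjusted p = 0.0161) in MI + DAPA vs. Sham. It was -0.33 (SE 0.38, limma adjusted p = 0.755) in MI + DAPA vs. MI, and without MI replicate 2 it was -0.01.

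Ctsh, an aminopeptidase, had the closest values within group Sham relative to its mean, at 43.7, 42.4 and 36.0 FPKM. The MI rats had 146, 176 and 133 FPKM, and the MI + DAPA rats had 114, 103 and 140 FPKM. The mean rose 3.73 times in group MI, with a log2 fold change of 1.87 (SE 0.16, limma adjusted p = 0.000953). With Ctsk it had the smallest adjusted p of the 10 genes. The log2 fold change was -0.35 (SE 0.19, limma adjusted p = 0.568) in MI + DAPA vs. MI, and in MI + DAPA vs. Sham it was 1.52 (SE 0.17, limma adjusted p = 0.00219).

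Ctsc, a dipeptidyl peptidase that activates the proteases stored in granules of neutrophils, mast cells and cytotoxic lymphocytes, was at 13.3, 10.7 and 11.0 FPKM in the Sham rats. The MI rats had 28.4, 68.5 and 30.8 FPKM, and the MI + DAPA rats had 20.8, 19.5 and 32.4 FPKM. MI replicate 2 stood far above the other 2 MI rats, which the highest treated rat overlapped. The log2 fold change in MI vs. Sham was 1.67 (SE 0.33, limma adjusted p = 0.00791), and it was 1.28 without MI replicate 2. It was -0.71 (SE 0.36, limma adjusted p = 0.559) in MI + DAPA vs. MI, and without MI replicate 2 it was -0.31. Against group Sham, treated rats had 0.96 (SE 0.22, limma adjusted p = 0.0167), just under the fold threshold, and Ctsc was called there in 3 of the 6 fits that each left out 1 rat (without Sham replicate 1, MI + DAPA replicate 1 or MI + DAPA replicate 2, with log2 fold changes of 1.06, 1.05 and 1.10).

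Ctsd, the main aspartic protease of lysosomes, was at 114, 74.5 and 80.4 FPKM in the Sham rats, at 232, 228 and 222 FPKM in the MI rats and at 266, 229 and 204 FPKM in the MI + DAPA rats. It rose in MI vs. Sham by a log2 fold change of 1.36 (SE 0.19, limma adjusted p = 0.00249), and in MI + DAPA vs. Sham by 1.39 (SE 0.21, limma adjusted p = 0.00454). The values of the MI rats lay within those of the MI + DAPA rats, with a log2 fold change of 0.03 (SE 0.17, limma adjusted p = 0.958).

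Lamp1 was at 111, 85.6 and 89.4 FPKM in the Sham rats, at 138, 151 and 127 FPKM in the MI rats and at 139, 140 and 133 FPKM in the MI + DAPA rats. Both ligated groups lay above group Sham, but by less than the fold threshold, with log2 fold changes of 0.54 (SE 0.16, limma adjusted p = 0.0321) for MI and 0.53 (SE 0.16, limma adjusted p = 0.0437) for MI + DAPA. The treated rats had the closest values of any of the 10 genes in group MI + DAPA relative to their mean, 138 ± 3.56 FPKM (SD, n = 3). Between MI + DAPA and MI the log2 fold change was -0.01 (SE 0.14, limma adjusted p = 0.987).

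Cd63 was at 242, 162 and 244 FPKM in the Sham rats, at 416, 325 and 370 FPKM in the MI rats and at 476, 412 and 328 FPKM in the MI + DAPA rats. The groups with ligation lay above group Sham without overlap. Cd63 had a log2 fold change of 0.79 (SE 0.21, limma adjusted p = 0.0231) in MI vs. Sham and 0.91 (SE 0.24, limma adjusted p = 0.0259) in MI + DAPA vs. Sham, both under the fold threshold. The latter passed it without Sham replicate 1 (1.01), Sham replicate 3 (1.01) or MI + DAPA replicate 3 (1.06). Between MI + DAPA and MI it was 0.12 (SE 0.22, limma adjusted p = 0.849).

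**Figure D2:**
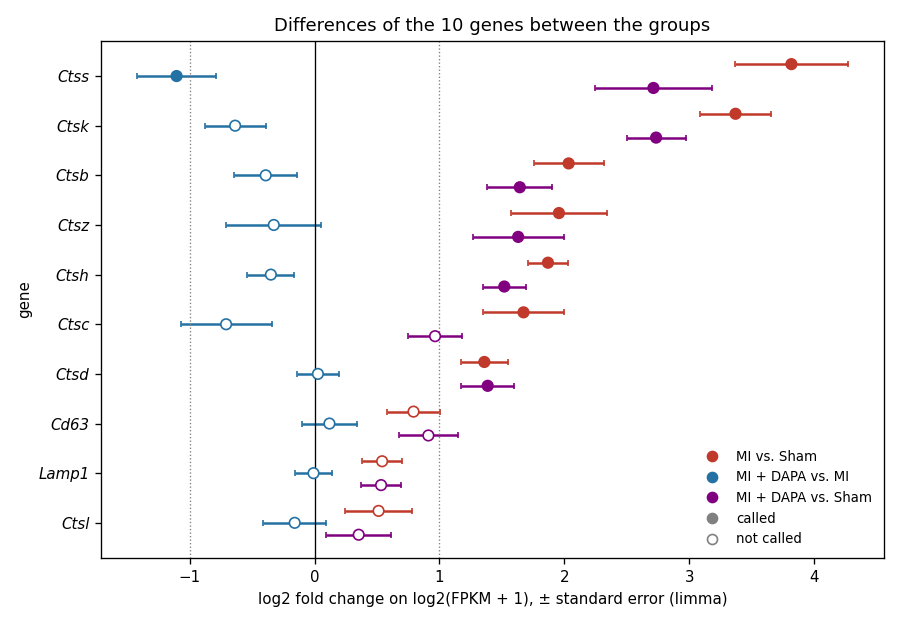
Log2 fold change on log2(FPKM + 1) (x axis) of the 10 genes (y axis) in the 3 comparisons, with bars of 1 standard error from limma and dotted lines at the threshold of 1 in either direction. Filled points were called, and Ctss at -1.10 is the only filled point left of 0.

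The 10 genes did not deviate alike in all rats of a group. Sham replicate 1 was the highest Sham rat for 9 genes, MI replicate 2 was the highest MI rat for 7 and MI replicate 3 the lowest for 6, and MI + DAPA replicate 3 was the highest treated rat for 7. Cd63 went against this order in group MI, where replicate 2 had its lowest value. The summed level of the 10 genes was 832 ± 189 FPKM for Sham, 2088 ± 323 FPKM for MI and 1772 ± 170 FPKM for MI + DAPA (SD, n = 3 each).

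The make-up of this sum differed between the groups. Ctsl made up 25.5% ± 2.06 of it for Sham, 14.4% ± 1.298 for MI and 15.2% ± 1.61 for MI + DAPA. Lamp1 had 11.6% ± 1.35, 6.69% ± 0.451 and 7.82% ± 0.905. These 2 genes, which were not called, took smaller shares of the sum in every ligated rat than in any Sham rat. Ctsb had 14.4% ± 1.46, 23.4% ± 2.30 and 20.9% ± 1.59. Ctss had 1.55% ± 0.847, 8.59% ± 1.26 and 4.82% ± 1.75, and Ctsk had 1.01% ± 0.331, 4.51% ± 1.04 and 3.36% ± 0.58 (SD, n = 3 each). The shares of Ctss and Ctsk were larger in every ligated rat than in any Sham rat.

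**Figure D3:**
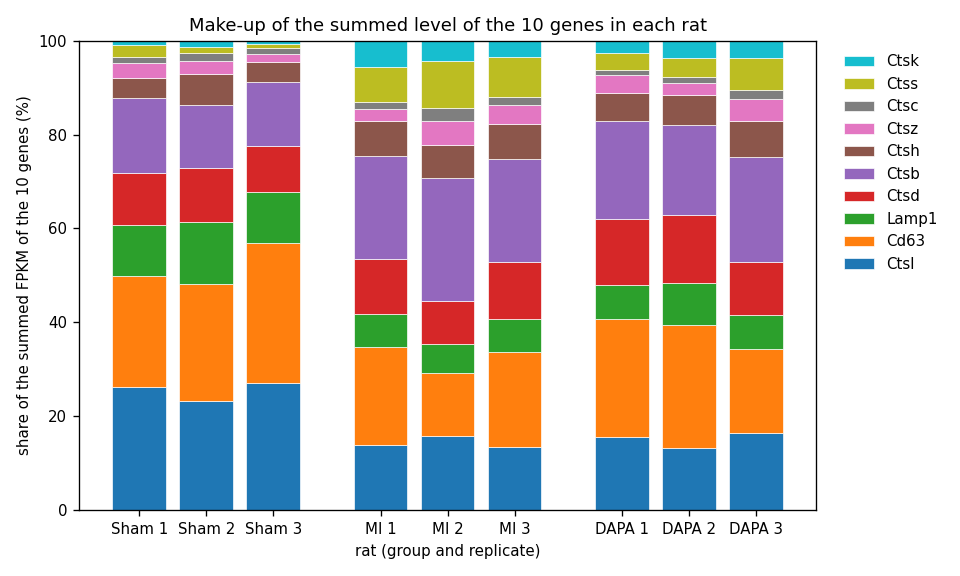
Share of each of the 10 genes in their summed FPKM (y axis, %) for each rat (x axis), as stacked bars. The segment of Ctsl at the bottom is 23.2% to 27.2% in the Sham rats and 13.4% to 16.5% in the ligated rats, and those of Ctss and Ctsk at the top are wider in the ligated rats.

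Ordered by mean FPKM, group Sham had Cd63 (216 ± 46.8 FPKM) and Ctsl (214 ± 59.9 FPKM) first and Ctsk last (8.22 ± 2.49 FPKM). Neighbours in this order overlapped, except that all rats were apart between Ctsd and Ctsh, between Ctsh and Ctsz, and between Ctsc and Ctsk. In group MI the order was Ctsb, Cd63, Ctsl, Ctsd, Ctss, Ctsh, Lamp1, Ctsk, Ctsz and Ctsc, with all rats apart only between Ctsl and Ctsd and between Lamp1 and Ctsk. Ctss thus moved from the eighth place to the fifth and Lamp1 from the fourth to the seventh. In group MI + DAPA the order was Cd63, Ctsb, Ctsl, Ctsd, Lamp1, Ctsh, Ctss, Ctsz, Ctsk and Ctsc, and rats were apart between Ctsb and Ctsl, between Ctsd and Lamp1 and between Ctsk and Ctsc.

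Among 14156 genes that reached 1 FPKM in 3 or more rats, the genes nearest in pattern were found by the root mean square difference of log2(FPKM + 1), centred over the 9 rats. For Ctsk these were Srpx2 (0.17), Gda (0.23) and Sulf2 (0.23), where the median over all genes was 1.52. For Ctss they were Cyp1b1 (0.26), the macrophage marker Lyz2 (0.28) and Ccdc80 (0.29), with a median of 1.72. For Ctsb they were Galnt1 (0.13), Tm9sf3 (0.14) and Parvg (0.14), with a median of 0.98. These genes were chosen for their likeness over the same 9 rats, so a shared order of the groups follows from the choice. Lyz2 was at 145 ± 121 FPKM for Sham, 1445 ± 480 FPKM for MI and 883 ± 213 FPKM for MI + DAPA (SD, n = 3). For Ctsd they were Smim3 (0.12), Rabgap1l (0.12) and Rnf5 (0.13), for Ctsl Wdr1 (0.10), Prr13 (0.10) and Dcst2 (0.11), and for Lamp1 Bcap31 (0.04), Epn1 (0.06) and AABR07073038.1 (0.07). Bcap31, the nearest of all, had means of 43.1, 61.0 and 61.3 FPKM in groups Sham, MI and MI + DAPA.

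Other enzymes of the lysosome were taken from lists. Of 14 further lysosomal peptidases tested, 11 rose and none fell in MI vs. Sham, with a median log2 fold change of 1.296, beside the 12.1% of all genes called higher. Dpp7, a dipeptidyl peptidase, rose by 1.41 (SE 0.16), and Ppt1, which removes palmitate from proteins, by 1.97 (SE 0.22). Of 39 glycosidases, sulfatases, lipases and related hydrolases, 14 rose and none fell, with a median of 0.81. Npc2, a carrier of cholesterol, rose by 2.02 (SE 0.22). None of these genes was called in MI + DAPA vs. MI. The medians were -0.46 for the peptidases and -0.28 for the other hydrolases, with the smallest p for Ppt1 (-0.51) and Man2b1, an alpha-mannosidase (-0.61).

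Of the other cysteine cathepsins and their relatives, 3 were expressed enough to be tested. Ctsf rose in MI vs. Sham by 1.09 (SE 0.22), a call that was lost without Sham replicate 2 or MI replicate 2 (0.94 each), and Tinagl1, a matrix protein with a cathepsin-like domain, had 0.35. Ctsw, a cathepsin of cytotoxic lymphocytes, was called lower in MI + DAPA vs. MI at -1.31 (SE 0.54). That call held in 1 of the 6 fits that left out a rat, at -1.88 without MI replicate 1, and the value without MI replicate 2 was -0.71. Of 7 genes tested from a list of protease inhibitors, 4 rose in MI vs. Sham, beside 12.1% of all genes called higher. The median of the 7 was 1.03. The list mixed cystatins with serpins, and which proteases each gene inhibits was not examined. Of the cystatins, Cstb (0.19) and Cst6 (0.98) were not called, whereas Cst7 rose by 2.21 (SE 0.51). Cstb and Cst7 were named after their values were seen. Serpina3n, a serpin, rose by 4.63 (SE 0.57) and Serpinb1a by 1.94 (SE 0.27). In group Sham Serpina3n was at 0.0277 to 0.708 FPKM, so it passed the filter of 1 FPKM only through the MI rats. Cst3, cystatin C, the most abundant secreted inhibitor of cysteine cathepsins, was at 808 to 1010 FPKM in group Sham and at 1539 to 1703 FPKM in group MI, with a log2 fold change of 0.83 (SE 0.18) under the threshold. No inhibitor was called in MI + DAPA vs. MI, and the smallest p was that of Cst6 (-0.68).

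Of 29 other lysosomal membrane proteins tested, 11 rose and 1 fell in MI vs. Sham, beside 12.1% of all genes called higher and 10.3% called lower. Their median log2 fold change was 0.50, close to the 0.54 of Lamp1. Scarb2, an abundant protein of the lysosomal membrane, rose by 2.17 (SE 0.18), and Cd164, a sialomucin, by 1.14 (SE 0.17). Lamp2, the closest relative of Lamp1, was at 38.5 to 49.3 FPKM in group Sham and at 76.5 to 103 FPKM in group MI, and rose by 1.05 (SE 0.17). That call was lost without Sham replicate 3 (0.98) or MI replicate 2 (0.95). Cd68, the macrophage member of the same family, rose by 2.65 (SE 0.58). None of the 29 was called in MI + DAPA vs. MI, where Lamp2 had -0.35, Cd68 -0.37 and Slc17a5, a sialic acid exporter with the smallest p, -0.46. Of 19 tetraspanins beside Cd63, 5 rose and 4 fell in MI vs. Sham, where 12.1% of all genes tested were called higher and 10.3% lower. Tspan3 rose by 1.29 (SE 0.15) and Tspan8 fell by 1.96 on the log2 scale (SE 0.21). Tspan15 had the smallest p of them in MI + DAPA vs. MI, with a log2 fold change of 0.53. There 1 tetraspanin was called lower, beside 1.11% of all genes.

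The matrix proteins and MHC class II genes that cathepsins act on or beside moved with group MI as well. Of 18 tested, 15 rose in MI vs. Sham, beside 12.1% of all genes called higher, with a median of 2.93, and none fell. Col1a2 rose by 4.60 (SE 0.39) and Col3a1 by 4.53 (SE 0.39), both chains of fibrillar collagens. Between MI + DAPA and MI, 7 of the 18 were called lower, against 1.11% of all genes tested, with a median of -1.09. RT1-DOa, a chain of an MHC class II chaperone, had the smallest p and was called lower at -1.23 (SE 0.22, limma adjusted p = 0.558). Cd74, the invariant chain that Ctss trims, was named after its values were seen. It was at 98.5 to 260 FPKM for Sham, 650 to 1618 FPKM for MI and 316 to 422 FPKM for MI + DAPA, and was called lower in MI + DAPA vs. MI at -1.41 (SE 0.36). Of 5 granule proteases that Ctsc activates, none was called in MI vs. Sham, where Gzmm (1.14) and Gzmk (1.18) had the smallest p. Gzmm was called at 1.84 without MI replicate 1 and Gzmk at 1.98 without Sham replicate 2, and without MI replicate 2 they had 0.40 and 0.46. Of these proteases 2 were called lower in MI + DAPA vs. MI, where Cma1, the mast cell chymase, had -1.07 (SE 0.23) and lost the call without MI replicate 1 (-0.88) or MI + DAPA replicate 3 (-0.95).

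**Figure D4:**
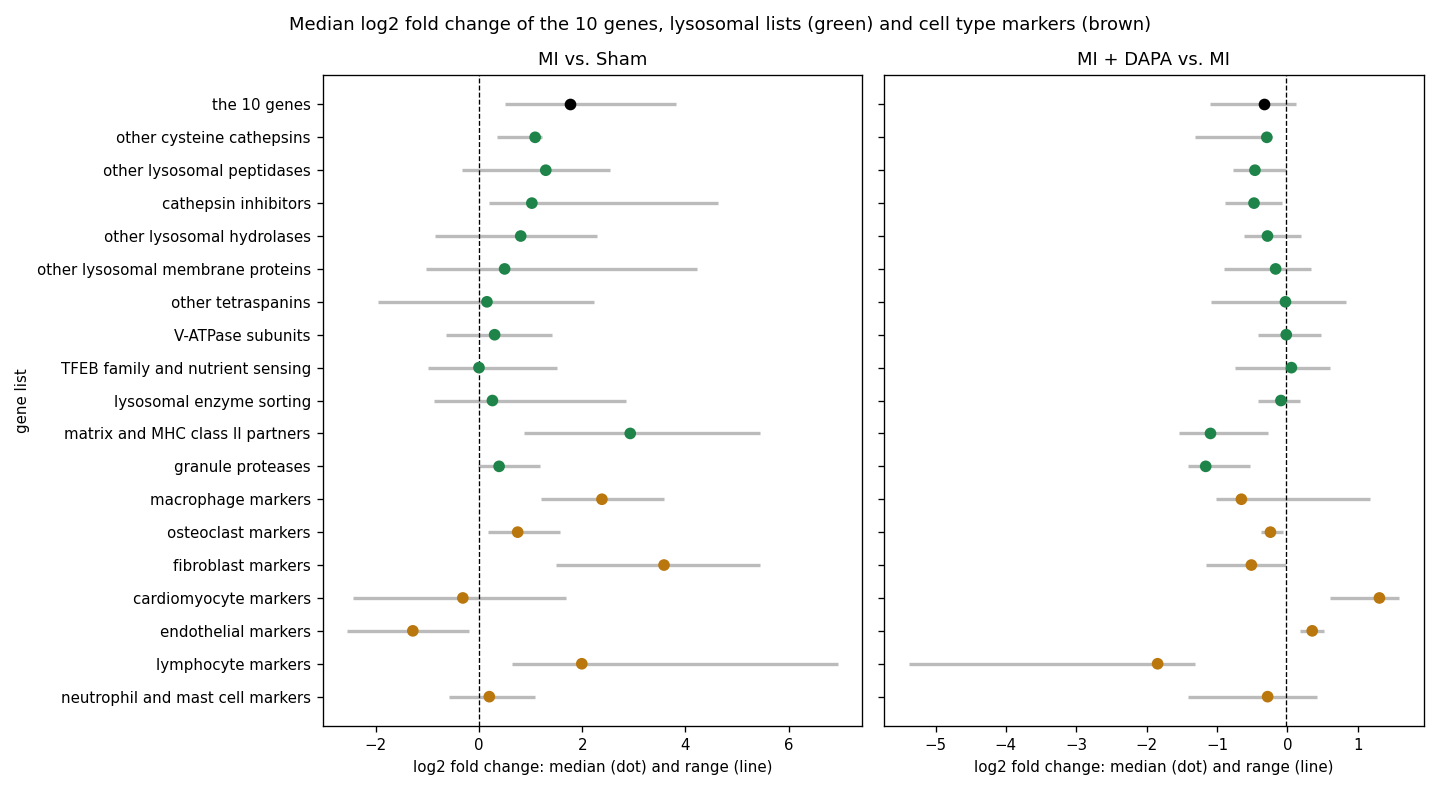
Median (dot) and range (line) of the log2 fold changes (x axes) over the tested genes of each list (y axis) in MI vs. Sham on the left and MI + DAPA vs. MI on the right, with the 10 genes in black and the median of all genes as a dashed line. In MI vs. Sham the 10 genes have a median of 1.77, the other peptidases 1.296 and the V-ATPase subunits 0.31.

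Markers of macrophages and fibroblasts differed between the groups beside the cathepsins. In MI vs. Sham 17 of 18 macrophage markers tested rose, beside 12.1% of all genes called higher, with a median of 2.38. Among them were C1qb (3.22), C1qc (2.65), Csf1r (2.51), the receptor that macrophages need to survive, and Adgre1 (2.59). The summed level of the 18 markers was 244 to 683 FPKM for Sham, 2462 to 4053 FPKM for MI and 1359 to 2415 FPKM for MI + DAPA. The highest Sham rat was replicate 1 and the highest MI rat replicate 2, as for most of the cathepsins. All 11 fibroblast markers rose in MI vs. Sham, with a median of 3.59, and Pdgfra rose by 2.81. Their sum was 440 to 718 FPKM for Sham, 2711 to 4905 FPKM for MI and 2294.5 to 3146 FPKM for MI + DAPA. In MI + DAPA vs. MI, 1 macrophage marker was called lower, Lyve1 (-1.02), a call lost in 4 of the 6 fits that left out a rat (without MI replicate 2 or 3, or MI + DAPA replicate 2 or 3, with -0.86, -0.96, -0.94 and -0.98), while Csf1r had -0.62 and Adgre1 -0.73 (called at -1.02 without MI replicate 1). The 18 macrophage markers ranged from -1.02 to 1.17 in this comparison, with a median of -0.66 and 2 of them positive. Over all genes tested 1.11% were called lower in MI + DAPA vs. MI. Of the fibroblast markers 1 was called lower there, Pdgfra had -0.46, and Thy1, with the smallest p, had -0.91 (called at -1.16 without MI replicate 3). No marker of these 2 lists that was found in the table was listed at 0 in any rat. The part of macrophages and fibroblasts in the differences of the 10 genes was not tested.

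Of 15 cardiomyocyte markers, 1 rose and 3 fell in MI vs. Sham, beside 12.1% of all genes called higher and 10.3% called lower. Myh6 fell by 2.43 on the log2 scale and Tnni3 by 2.32. The list went both ways, from -2.43 to 1.68, with a median of -0.31 and 4 positive values. Under DAPA, 2 of the cardiomyocyte markers rose against group MI, beside 0.951% of all genes called higher, with a median of 1.31 over the list. Myl2 was called higher at 1.59, a call lost in 5 of the 6 fits that left out a rat, with values from 0.96 without MI replicate 2 to 2.18 without MI replicate 3. Myh6 had 1.31, with 1.89 and a call without MI replicate 3 and 0.82 without MI + DAPA replicate 2. The sum of these markers was 9582 to 13739 FPKM for Sham, 3142 to 16200 FPKM for MI and 12731 to 26822 FPKM for MI + DAPA. Of 8 endothelial markers 5 fell in MI vs. Sham, among them Egfl7 (-2.55) and Tie1 (-1.14), and none was called in MI + DAPA vs. MI, where Tek had 0.41. Of 7 lymphocyte markers 3 rose in MI vs. Sham, among them Jchain (6.95) and Ighm (4.57), beside 12.1% of all genes called higher. In MI + DAPA vs. MI 3 of the 7 were called lower, among them Jchain (-5.38), beside 1.11% of all genes. The sum of the lymphocyte list was 13.6 to 20.2 FPKM in group Sham and 17.1 to 24.1 FPKM in group MI + DAPA, but 44.5, 3739 and 658 FPKM in the 3 MI rats. MI replicate 2, the highest of these, also had the highest Ctsb, Ctsc, Ctsh, Ctsl, Ctss, Ctsz and Lamp1 of its group. Of 8 neutrophil and mast cell markers 1 rose in MI vs. Sham, a share near the 12.1% of all genes called higher. It was Csf3r (1.08), which lost the call without Sham replicate 3 (0.99), while Kit had -0.58. Csf3r passed the filter in only 3 of the 6 fits that left out a rat. In MI + DAPA vs. MI 3 of the 8 were called lower, beside 1.11% of all genes. The part of these cell types in the differences of the 10 genes was not tested.

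The share of mitochondrial reads moved with the groups, and the scaling of the values bears on the size of every difference. When reads were scaled to all recovered reads of a rat, the median of all genes in MI vs. Sham shifted to 0.92 and the split of calls over all genes from 1634 higher and 1390 lower to 6099 higher and 290 lower. All 10 genes were then called higher. Relative to that shift their log2 fold changes ranged from 0.70 for Ctsl and 0.72 for Lamp1 to 3.46 for Ctsk and 3.93 for Ctss, in the same order as before. Between MI + DAPA and MI the median of all genes shifted to -0.21, and relative to it Ctss had -1.12, Ctsk -0.65, Ctsd 0.01, Lamp1 -0.02 and Cd63 0.11.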

How the data were processed

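RNA of rat left ventricle was sequenced from 3 separate rats per group (9 libraries, NEBNext poly-A kit). The authors deposited 1 table of FPKM values with 1 column per rat. The submitters' processing notes name HISAT2 2.0.5, StringTie 1.3.3b, featureCounts 1.5.0-p3 and DESeq2. The genome build is not given in the sources used here. The number of columns not used was 0.

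Whole reads per gene and the relative denominators of the libraries were recovered from the steps of the FPKM values. All 18896 genes seen in 4 or more libraries (100%) came out whole within 0.01. The denominators were 0.841 to 1 in group Sham and 1.69 to 1.85 in group MI, relative to Sham replicate 1. The reads outside the mitochondrial genome were 5702454 to 13171891 per rat, so the genes described were measured at lower depth in group Sham. Reads carried no molecular identifiers, so these depths bear on counting error only.

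limma 3.58.1 in R 4.3.3 was run on log2(FPKM + 1) in fits of 2 groups each, and the prior variance followed mean expression. Genes that reached 1 FPKM in 3 or more of the rats fitted were tested. Calls needed an unadjusted p under 0.05, as the cut-off of the study was read, and an absolute log2 fold change over 1. Fold changes on this scale understate the change of low genes. The script was tested on simulated data. The other steps used numpy 2.4.6 and pandas 2.3.3 under Python 3.11.15, and plots used matplotlib 3.10.9.

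The genes and lists were chosen with earlier results of these data known. Genes named beside the 10 are the 2 of each list with the smallest p in MI vs. Sham and the 1 with the smallest p in MI + DAPA vs. MI, 8 defining genes (Tfeb, Lamp2, Cd68, Cst3, Csf1r, Adgre1, Pdgfra, Myh6) and the 3 nearest in pattern to Ctsk, Ctss, Ctsb, Ctsd, Ctsl and Lamp1. A gene that this rule names is not reported here. Overlapping neighbours were named for their position. Alternatives were a pseudocount of 0.1, no filter, 1 fit over all 9 rats, a block for the replicate number, 4 other scalings, adjusted p-values, no fold threshold, 1 prior variance, and each rat left out in turn.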

Additional observations from a re-analysis of the deposited data

How the results depend on the processing

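The 7 genes called in MI vs. Sham stayed within 1.5 times that number under every alternative run. In MI + DAPA vs. MI the 1 call (Ctss) became 3 with FPKM rescaled to the same sum, 2 without the fold threshold and 0 with adjusted p-values, and ranged from 0 to 1 when each rat was left out. Over all genes, those called lower there went from 147 to 533 with the same sum and to 517 without the fold threshold. In MI + DAPA vs. Sham the 6 calls became 10 with FPKM rescaled to the same sum and 10 with values scaled to all recovered reads. Over all genes, those called higher in that comparison went from 1274 of 13359 tested to 6513 of 13233 and to 4433 of 13050. The median log2 fold change of all genes was 0.996 and 0.744 with these scalings, so the gain in calls was not particular to the 10 genes. In MI + DAPA vs. MI the sign of values near 0 turned. Cd63 had -0.25 with the same sum and -0.11 with all recovered reads. Ctsd had -0.34 and -0.20 with these scalings and -0.031 with the mitochondrial genes left out. The median of all genes was -0.34 with the same sum and -0.21 with all recovered reads. Relative to these medians Cd63 had 0.09 and 0.11, and Ctsd had -0.003 and 0.01. Lamp1 had 0.0101 with the median log2 ratio set to 0. With each rat left out Cd63 ranged from -0.0046 to 0.26, Ctsd from -0.073 to 0.12, Ctsl from -0.30 to 0.032 and Lamp1 from -0.071 to 0.054. In MI vs. Sham, with the same sum and with all recovered reads, Kit turned to 0.75 and 0.37, Lamtor2 to 0.55 and 0.11, and Tcirg1 to 0.91 and 0.48, and Tie1 turned to 0.40 with the same sum. The median of all genes was 1.29 and 0.92 with these scalings. Relative to it Kit had -0.54 and -0.56, Lamtor2 -0.75 and -0.81, and Tcirg1 -0.39 and -0.45. Tie1 had -0.90 relative to it with the same sum. Tfeb turned to -0.035 with the mitochondrial genes left out and ranged from -0.071 to 0.064 with each rat left out. The cause was not tested.

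The replicate number as a block left the calls at 7 genes in MI vs. Sham, 1 in MI + DAPA vs. MI and 6 in MI + DAPA vs. Sham. Same-numbered rats did not deviate together in every pair (correlations from -0.32 to 0.20 over the 3 comparisons). Rats of unlike number had correlations from -0.24 to 0.34. With 3 rats per group these values cannot settle whether the numbers pair the rats.

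Each group had 3 rats, and no gene had an adjusted p under 0.05 in MI + DAPA vs. MI. The depth outside the mitochondrial genome was lowest in group Sham, and the scaling chosen moves the values in MI vs. Sham, by unequal amounts on log2(FPKM + 1). RNA from mixed tissue does not show which cells carry it.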

Other observations

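Beyond the enzymes and membrane proteins, the parts of the lysosome that acidify it, that sense nutrients at its surface and that carry enzymes to it had smaller median differences. The 18 subunits of the V-ATPase, the proton pump of the lysosome, had a median log2 fold change of 0.31 in MI vs. Sham. Of these 1 rose, beside 12.1% of all genes called higher. That gene was Atp6ap1, an accessory subunit, which rose by 1.42 (SE 0.12), while Tcirg1, an a-type subunit that osteoclasts use, had -0.59 (SE 0.14). None was called in MI + DAPA vs. MI, where Atp6ap2 had the smallest p (-0.42).

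Of 19 transcription factors and nutrient-sensing genes, 1 rose in MI vs. Sham, beside 12.1% of all genes called higher, with a median of 0.003. Tfeb, a factor that like its relatives recognises the CACGTG element, was at 14.9 to 17.7 FPKM in group Sham. It was at 15.2 to 18.1 FPKM in group MI and 14.8 to 20.4 FPKM in group MI + DAPA. Its log2 fold change in MI vs. Sham was 0.003 (SE 0.14). Lamtor1 had 0.96 (SE 0.16) and Lamtor2 -0.98 (SE 0.17), both parts of the complex that anchors mTORC1 to the lysosome, and each passed the fold threshold in 2 of the fits that left out a rat. Lamtor2 also had the smallest p in MI + DAPA vs. MI (0.61). Of 17 genes of enzyme sorting, 2 rose, a share near the 12.1% of all genes called higher. They were Lrp1, an endocytic receptor (2.85, SE 0.25), and Lman1, a cargo receptor of the early secretory pathway (1.66, SE 0.27). None of the 17 was called in MI + DAPA vs. MI, where Nagpa had the smallest p (-0.33).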
